A study of Mus musculus with 10 samples.

Results

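The genes described here were 38 transcripts of the hypoxia response and of glucose breakdown, measured by RNA sequencing in 10 whole brains of FVB/NJ mice. They were chosen by name from the deposited gene table, which held 25050 genes, and all 38 had enough counts to be tested among 14526 tested genes. By role they were 3 subunits of hypoxia-inducible factor, 3 prolyl hydroxylases, 13 fast targets of hypoxia, 15 genes of constitutive glycolysis, 3 monocarboxylate transporters and the kinase Pdk2. The study compared 5 wildtype brains (Abcc5+/+) with 5 knockout brains (Abcc5-/-), Abcc5 encoding an ATP-binding cassette transporter that exports organic anions. Every animal in both groups was killed with carbon dioxide and the brain was put on dry ice at once, so no library shows these genes in brains taken in another way, and the response to the gas itself could not be measured. Polyadenylated RNA was sequenced from Trizol extracts with a library kit that does not mark strand, and the age and sex of the mice are not given in the sources used here.

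Hypoxia-inducible factor (HIF) pairs an oxygen-regulated alpha subunit with Arnt. When oxygen is present, prolyl hydroxylases mark the alpha subunit for destruction, and when oxygen is short it accumulates and raises transcription of genes for glucose uptake, glycolysis, vessel growth and mitochondrial turnover. Glycolytic enzymes are also transcribed at all times in the brain, where glucose is the main fuel, so fast targets and constitutive enzymes are described apart.

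Total counts ran from 7731294 to 23588335 per library, and those of at least 19795743 counts, here the deeper libraries, were wildtype replicate 1 with knockout replicates 2 and 4. Abcc5 itself was lower in knockout brains, at 218.8 ± 5.95 against 311.1 ± 12.6 CPM (counts scaled to library size; SD, n = 5 each; edgeR adjusted p 6.35e-06). Knockout replicate 3 stood apart from the other 9 libraries on the axis of largest variance, which held 33.0% of it. Its 12 cerebellar markers summed to 284 CPM, against 1652 to 1950.4 CPM in the others, so results are also given without it. Where the text gives CPM, libraries were scaled by the trimmed mean of M-values (TMM), fold changes are knockout over wildtype, and a gene was called at an edgeR adjusted p under 0.05 over all tested genes. The edgeR p-values set the difference between genotypes against the spread among brains of the same genotype, for these 10 brains alone.

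Of the 38 genes, 3 fell in knockout brains and 0 rose. The 3 were P4ha1, Pfkfb3 and Vegfa, all fast targets of hypoxia. Over all tested genes 1.18% were called, 0.964% lower and 0.213% higher. The wildtype and knockout groups did not overlap in these 3 genes and overlapped in the other 35. Among tested genes the groups did not overlap in 4.19%, with all knockout brains below all wildtype brains in 2.64% and above them in 1.54%. At an unadjusted edgeR p under 0.05, 7 of the 38 were lower and 0 were higher, beside 8.03% and 6.74% of tested genes. The genes were chosen with earlier results of these data known. Their counts beside these shares therefore do not test whether hypoxia targets fell more often than other genes. In bulk tissue, fewer cells of a type and less RNA per cell cannot be told apart.

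**Figure D1:**
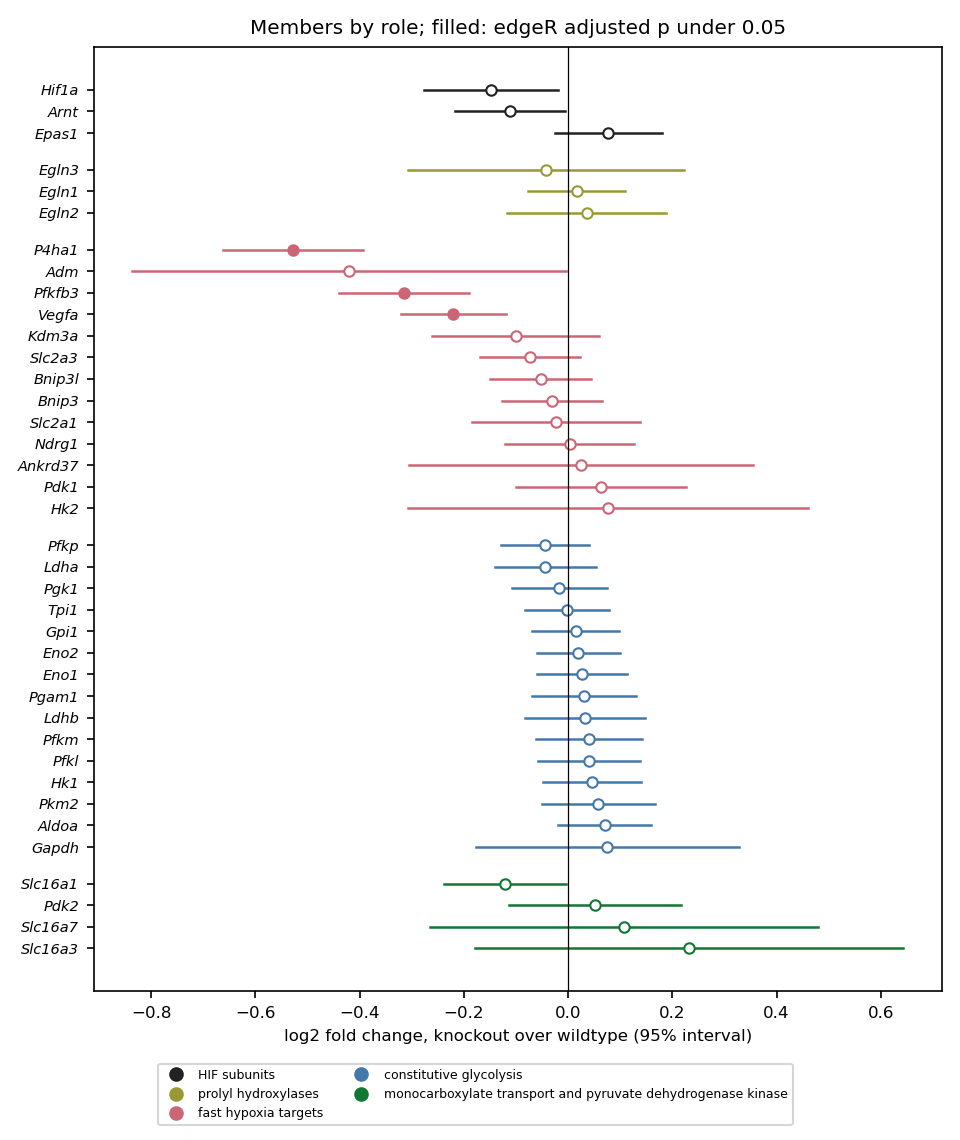
log2 fold change of each of the 38 genes, knockout over wildtype, ordered by role; points are edgeR estimates, bars are 95% intervals and filled points passed an adjusted p of 0.05. P4ha1 (-0.53), Pfkfb3 (-0.31) and Vegfa (-0.22) lie to the left of 0, and the 15 glycolysis genes lie between -0.04 and 0.08.

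P4ha1, which encodes the catalytic subunit of collagen prolyl 4-hydroxylase, had the strongest fold change of the 38. In wildtype replicates 1 to 5 it was at 61.7, 64.5, 63.2, 66.9 and 64.4 CPM, and in knockout replicates 1 to 5 at 41.5, 42.0, 53.4, 43.2 and 43.8 CPM. The wildtype brains lay close together, 4 knockout brains lay far below them, and knockout replicate 3 lay between, without reaching the lowest wildtype value. The means were 64.1 ± 1.93 and 44.8 ± 4.92 CPM (SD, n = 5 each), a reduction of 30.6% with a log2 fold change of -0.53 (SE 0.063, 95% interval -0.66 to -0.39) and an edgeR adjusted p of 0.000426. Without knockout replicate 3 the log2 fold change was -0.59 (edgeR adjusted p 7.34e-07). P4ha1 is listed as ENSMUSG00000019916 on chromosome 10, from 58786044 to 58836052 in the deposited coordinates, whose genome build is not named.

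Pfkfb3, the enzyme that makes fructose 2,6-bisphosphate and so speeds up phosphofructokinase, also fell. Its wildtype values were 52.2, 47.9, 58.4, 54.0 and 54.3 CPM, and its knockout values were 41.5, 45.4, 42.0, 44.3 and 39.6 CPM. Wildtype replicate 2 was the lowest of its group and stood just above knockout replicate 2, the highest of the other group. The means were 53.4 ± 3.82 and 42.5 ± 2.33 CPM, a reduction of 19.6% and -0.31 on the log2 scale (SE 0.0586, 95% interval -0.44 to -0.19, edgeR adjusted p 0.0156). The call was lost when wildtype replicate 4 was left out (edgeR adjusted p 0.0561) and when wildtype replicate 5 was (0.052), and it was kept when knockout replicate 3 was (0.0122). Pfkfb3 (ENSMUSG00000026773) lies on chromosome 2 from 11393057 to 11423728 in the deposited coordinates.

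Vegfa, the main growth factor of blood vessels, fell by the smallest percentage of the 3. It was at 108, 109.6, 99.7, 111 and 108 CPM in wildtype brains and at 92.8, 94.3, 85.4, 97.9 and 88.9 CPM in knockout brains. Wildtype replicate 3 was far below the other 4 of its group, close to the highest knockout brain, replicate 4. The means of 107 ± 4.36 and 91.8 ± 4.85 CPM differed by 14.2%, a log2 fold change of -0.22 (SE 0.0473, 95% interval -0.32 to -0.12, edgeR adjusted p 0.0338). The edgeR adjusted p passed 0.05 when wildtype replicate 2, 4 or 5 was left out (0.0893, 0.106 and 0.0885) and when knockout replicate 1, 2 or 5 was (0.0717, 0.0749 and 0.0595). Leaving out knockout replicate 3 kept the call (0.0302). Vegfa (ENSMUSG00000023951) is listed on chromosome 17 from 46153942 to 46169326.

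**Figure D2:**
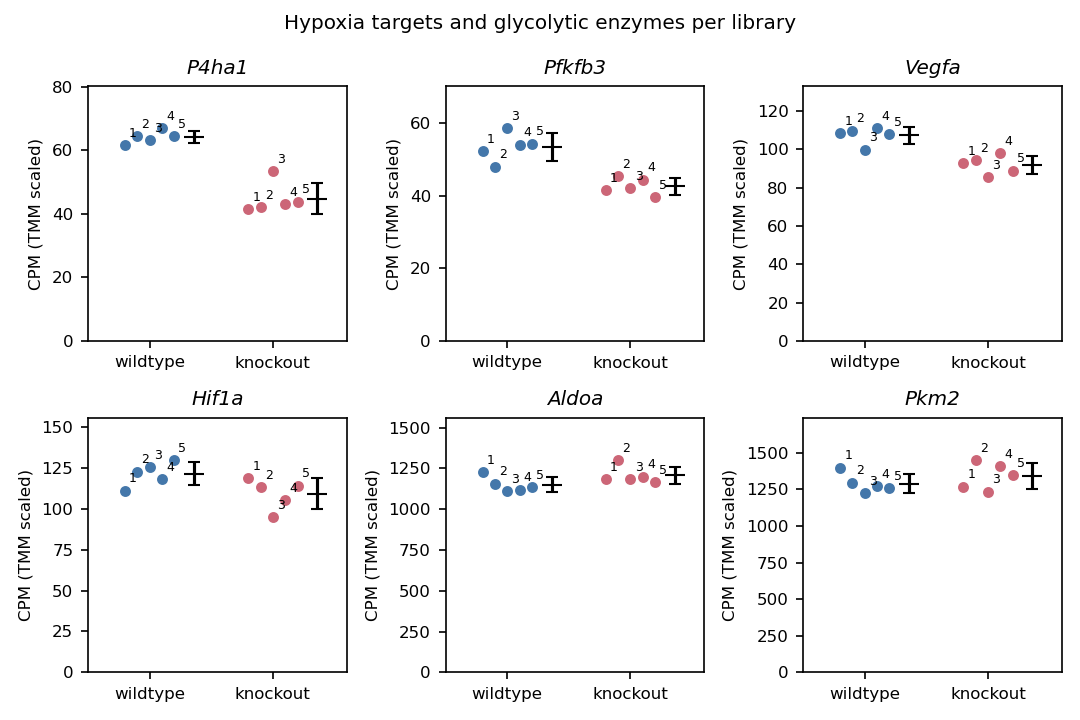
TMM-scaled CPM in each of the 10 libraries for the genes the comparison turns on, one panel per gene with its own axis; numbered points are single brains, and the black marks beside them are the group mean with its SD. In the panels of P4ha1, Pfkfb3 and Vegfa no knockout brain reaches the lowest wildtype brain.

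The 3 genes were also compared within the depth classes, since 3 libraries were far deeper than the other 7. In the deeper libraries (1 wildtype, 2 knockout) the log2 differences were -0.53 for P4ha1, -0.22 for Pfkfb3 and -0.17 for Vegfa. In the 7 shallower libraries they were -0.49, -0.38 and -0.26, and only P4ha1 was called there (edgeR adjusted p 0.0226, against 0.0543 and 0.0821). In the authors' deposited table the adjusted p-values of P4ha1, Pfkfb3 and Vegfa were 0.000178, 0.0338 and 0.0739, so that table calls 2 of them.

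A promoter of each of these 3 genes is printed to show where the short core to which HIF binds does and does not occur, and that of Ldha is printed because it held the most matches of any glycolysis promoter while its transcript was not called. The lines below run 5′ to 3′ and end at the base before the annotated start or first exon. Sequences and positions are those of RefSeq on GRCm38.p6, another coordinate system than that of the deposited positions. They are chr10:59323046-59323295 on the plus strand for P4ha1, chr2:11502102-11502340 on the minus strand for Pfkfb3, chr17:46032378-46032627 on the minus strand for Vegfa and chr7:46845554-46845803 on the plus strand for Ldha. Capitals mark ACGTG or GCGTG, read on either strand (CACGT or CACGC when the match is on the other strand).
P4ha1: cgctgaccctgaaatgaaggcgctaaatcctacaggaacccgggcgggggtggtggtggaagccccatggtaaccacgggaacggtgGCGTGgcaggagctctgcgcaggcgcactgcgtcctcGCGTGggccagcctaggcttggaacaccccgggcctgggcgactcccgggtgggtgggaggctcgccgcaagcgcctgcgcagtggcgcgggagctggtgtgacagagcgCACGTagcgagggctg
Pfkfb3: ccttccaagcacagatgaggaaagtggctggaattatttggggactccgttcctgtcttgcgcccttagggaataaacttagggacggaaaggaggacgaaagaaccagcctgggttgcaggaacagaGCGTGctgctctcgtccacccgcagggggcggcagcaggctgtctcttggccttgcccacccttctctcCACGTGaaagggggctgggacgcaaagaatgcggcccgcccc
Vegfa: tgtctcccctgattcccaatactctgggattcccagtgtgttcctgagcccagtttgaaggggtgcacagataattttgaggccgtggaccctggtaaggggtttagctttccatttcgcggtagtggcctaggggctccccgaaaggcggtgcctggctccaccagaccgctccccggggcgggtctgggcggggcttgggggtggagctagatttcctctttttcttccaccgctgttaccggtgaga
Ldha: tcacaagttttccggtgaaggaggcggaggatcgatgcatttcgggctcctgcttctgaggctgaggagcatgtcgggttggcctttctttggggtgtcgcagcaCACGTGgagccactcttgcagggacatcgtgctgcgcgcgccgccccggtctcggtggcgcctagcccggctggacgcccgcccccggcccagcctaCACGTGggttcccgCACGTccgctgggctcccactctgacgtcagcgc
P4ha1 held 3 matches, beginning 163, 126 and 16 bases before the start. The Pfkfb3 stretch held 3 match positions, 2 of which overlap in a single CACGTG, since that run of letters reads the same on both strands. The printed Vegfa stretch held 0, and that of Ldha held 5, of which 4 come from a pair of CACGTG runs. Bases farther upstream than 250 were not searched, so a stretch with 0 matches does not show that the gene lacks the core. Pfkfb3, Vegfa and Ldha each have another annotated start, so these counts depend on the start shown. In the 250 bases before the other start there were 1 match for Pfkfb3, 2 for Vegfa and 1 for Ldha. That window overlapped 8 annotated exons for Vegfa and 1 for Pfkfb3. Unlike the printed stretches it was not cut there, so its matches may lie in exons.

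A RefSeq promoter was found for 33 of the 38 genes, 50 promoters in all, counted from 250 bases before the start to 50 after it. The core stood in 38 of the 50 (76.0%), in 11 of 15 promoters of fast targets (73.3%) and in 18 of 25 promoters of constitutive glycolysis (72.0%). Among 13043 promoters of tested genes the share was 60.5%, and among all 32851 promoters of the table it was 43.8%. The promoters of the 38 genes had a median GC content of 62.2% and those of tested genes 60.7%. Promoters of 1 gene can overlap and then count the same match more than once. Counted by gene, at least 1 promoter held the core in 10 of 10 matched fast targets, in 12 of 15 constitutive glycolysis genes and in 6773 of 10092 matched tested genes. A match of letters does not show that a factor binds there.

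The HIF subunits themselves were not called. Hif1a, the alpha subunit of the acute response, was at 111, 123, 126, 118 and 129.7 CPM in wildtype and at 119, 113, 94.9, 105 and 114 CPM in knockout brains. The groups overlapped, with wildtype replicate 1 below 3 knockout brains and knockout replicate 3 the lowest of all. The log2 fold change was -0.15 (95% interval -0.28 to -0.02), with an unadjusted edgeR p of 0.0267 and an adjusted p of 0.269. Arnt, the shared partner, was at 71.4, 73.9, 77.7, 74.2 and 74.0 CPM in wildtype and 75.3, 64.2, 65.2, 70.2 and 68.5 CPM in knockout brains. Knockout replicate 1 was above 4 of the 5 wildtype brains, and the log2 fold change was -0.11 (edgeR adjusted p 0.311). Epas1, the alpha subunit known from endothelium and astrocytes, was at 132, 132, 123, 126 and 115 CPM in wildtype and 128, 126, 140.1, 136 and 133 CPM in knockout brains. Its log2 fold change was 0.08 (edgeR adjusted p 0.478), and 3 knockout brains lay above every wildtype brain.

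The prolyl hydroxylases, which sense oxygen, were not called either. Egln1, the main hydroxylase of the alpha subunits, was at 84.6, 78.3, 87.2, 82.1 and 78.5 CPM in wildtype and 83.8, 79.9, 84.6, 82.8 and 85.1 CPM in knockout brains. The knockout values lay within the wildtype range, and the log2 fold change was 0.02 (95% interval -0.08 to 0.11, edgeR adjusted p 0.909). Egln2 was at 73.3, 60.2, 60.1, 62.8 and 64.3 CPM in wildtype and 63.1, 73.3, 58.7, 71.3 and 61.0 CPM in knockout brains, and the 3 highest values were those of the 3 deeper libraries. Its log2 fold change was 0.04 (edgeR adjusted p 0.866). Egln3, which is itself induced by HIF, was low at 10.6 ± 1.07 and 10.5 ± 2.22 CPM (log2 fold change -0.04, edgeR adjusted p 0.921).

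Among the 13 fast targets, 9 had a negative and 4 a positive log2 fold change, with a median of -0.05 beside 0.00 over all tested genes. They ran from -0.53 to 0.08. Slc2a3, the neuronal glucose transporter and the most abundant of the 13, was at 165, 168, 169.8, 165 and 176 CPM in wildtype and 158, 161, 164, 148 and 172 CPM in knockout brains. The knockout brains were mostly lower, but replicate 5 lay above 4 wildtype brains, and the log2 fold change was -0.07 (95% interval -0.17 to 0.02, edgeR adjusted p 0.477). Slc2a1, the glucose transporter of the blood-brain barrier, had means of 91.1 ± 6.94 and 89.4 ± 10.8 CPM, and its log2 fold change was -0.02 (edgeR adjusted p 0.932). Adm, the vasodilator peptide adrenomedullin, was at 2.12 ± 0.348 and 1.51 ± 0.409 CPM. Its log2 fold change of -0.42 was the second lowest of the 13, but it rested on as few as 10 counts in a library and was not called (unadjusted edgeR p 0.0484, adjusted p 0.334).

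The mitophagy receptors Bnip3 and Bnip3l had log2 fold changes of -0.03 and -0.05. Pdk1, a kinase of pyruvate dehydrogenase, had 0.06, and its highest library was knockout replicate 3 at 57.3 CPM. Kdm3a, a histone demethylase, had -0.10, and Ndrg1, a stress-responsive gene of oligodendrocytes and other cells, had 0.00. Ankrd37, at 3.38 ± 0.471 and 3.37 ± 0.707 CPM, had 0.02. Hk2, the inducible hexokinase, was at 5.19 ± 1.06 and 5.52 ± 1.55 CPM with a log2 fold change of 0.08, and knockout replicate 3 was its lowest library at 2.77 CPM. None of these 7 was called, with edgeR adjusted p-values from 0.565 to 0.992.

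Summed over the 13 fast targets, the wildtype brains had 896 to 925 CPM (911 ± 13.8) and the knockout brains 838 to 862 CPM (848 ± 8.79), a difference of -6.93%. Without P4ha1, Pfkfb3 and Vegfa the sum of the other 10 was 687 ± 10.8 and 669 ± 9.37 CPM, a difference of -2.56%, and the groups overlapped. These sums were not tested, since the 3 genes were set aside with their values known.

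The 15 genes of constitutive glycolysis gave 0 calls in either direction, where 1.18% of all tested genes were called. Of them, 11 had a positive and 4 a negative log2 fold change, with a median of 0.03 and a range of -0.04 to 0.08. The 95% interval lay within 0.2 of 0 on the log2 scale for 14 of the 15, Gapdh being the exception. The difference between this role and the fast targets was not tested. At the first steps, the hexokinase Hk1 was at 343 ± 19.7 and 354 ± 8.26 CPM, and the isomerase Gpi1 at 431 ± 16.0 and 436 ± 12.1 CPM. The phosphofructokinase subunits Pfkl, Pfkm and Pfkp had log2 fold changes of 0.04, 0.04 and -0.04.

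Aldoa, the aldolase that splits fructose 1,6-bisphosphate, had the smallest unadjusted p of the 15 at 0.118. It was at 1227, 1156, 1112, 1119 and 1136 CPM in wildtype and 1182, 1301, 1185, 1200 and 1166 CPM in knockout brains. Wildtype replicate 1, a deeper library, lay above 4 knockout brains, and the other 4 wildtype brains lay below all 5. The log2 fold change was 0.07 (95% interval -0.02 to 0.16, edgeR adjusted p 0.462). Pkm2, the symbol the table gives for pyruvate kinase of muscle and brain, was the most abundant of the 38, at 1397, 1295, 1222, 1273 and 1259 CPM in wildtype and 1268, 1450, 1234, 1408 and 1348 CPM in knockout brains. Its 3 highest libraries were the 3 deeper ones, and the log2 fold change was 0.06 (95% interval -0.05 to 0.17, edgeR adjusted p 0.638).

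The later steps of the pathway were not called either. The triose isomerase Tpi1 had a log2 fold change of -0.00, the kinase Pgk1 -0.02, the mutase Pgam1 0.03 and the enolases Eno1 and Eno2 0.03 and 0.02. Lactate dehydrogenase, which interconverts pyruvate and lactate, had -0.04 for Ldha and 0.03 for Ldhb. The edgeR adjusted p-values of these 7 ran from 0.708 to 0.989.

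Gapdh, usually among the most abundant transcripts of any tissue, was listed at only 5.84, 5.51, 6.45, 6.19 and 5.60 CPM in wildtype and 5.10, 6.10, 5.01, 6.86 and 7.57 CPM in knockout brains. The groups overlapped (log2 fold change 0.08, 95% interval -0.18 to 0.33, edgeR adjusted p 0.823), and the smallest library count was 38. Of the 50-base windows of its longest protein-coding transcript in GENCODE M21, 82.5% also occur in transcripts of other genes. These other genes number 222, of which 215 are annotated pseudogenes. High shares were also found for Eno1 (72.2%), Pgk1 (68.0%), Bnip3 (62.4%) and Pgam1 (41.5%). P4ha1 was among 15 genes with no shared window, and Vegfa and Pfkfb3 had 0.235% and 0.631%. How the authors treated reads that match several places is not given in the sources used here, so the levels of the 5 genes over 40% are uncertain, and the part of shared sequence in them was not tested.

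**Figure D3:**
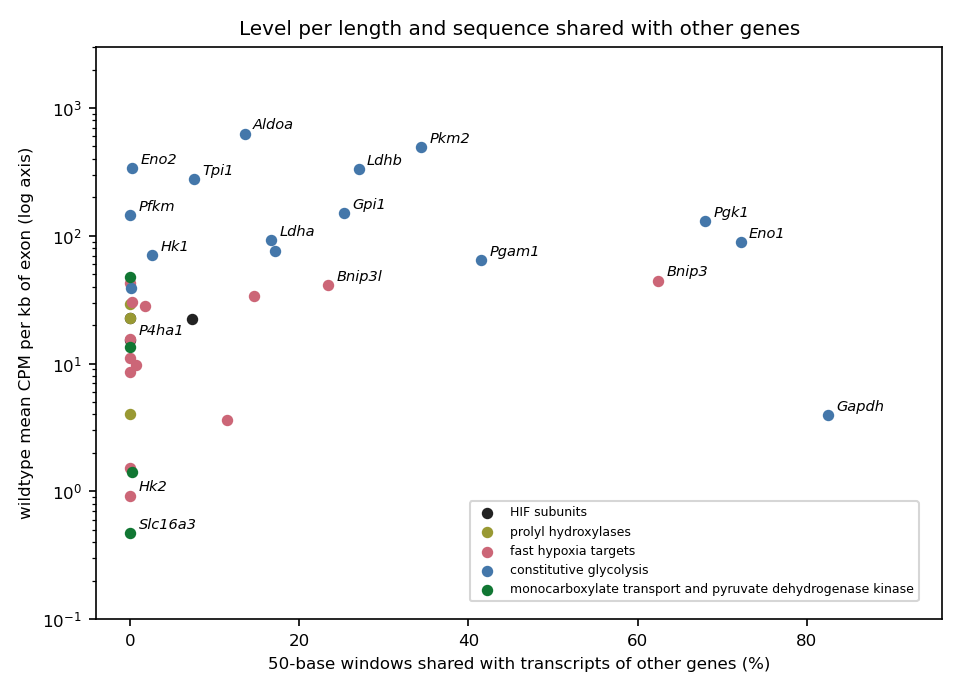
Level of each of the 38 genes in wildtype brains (mean CPM per kilobase of exon, log axis) against the percent of its 50-base transcript windows that also occur in other genes. Gapdh, at 82.5% shared windows, sits at 3.96 CPM per kilobase, under the other 14 glycolysis genes.

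Per kilobase of exon, levels in wildtype brains can be set against each other. Those of Gapdh, Eno1, Pgk1, Bnip3 and Pgam1 are uncertain, with over 40% of their windows shared with other genes. Aldoa led with 630.4 CPM per kilobase, ahead of Pkm2 (496), Eno2 (341), Ldhb (333) and Tpi1 (277). Every other constitutive glycolysis gene except Gapdh had between 39.3 (Pfkl) and 149.6 (Gpi1) CPM per kilobase. The fast targets began at 44.5 for Bnip3 and 42.6 for Slc2a3, with Vegfa at 30.4, P4ha1 at 15.6, Pfkfb3 at 9.66 and Hk2 at 0.925 CPM per kilobase. Hif1a and Epas1 were near equal at 22.3 and 22.7 CPM per kilobase. The exon models are those of GENCODE M21 and may differ from the annotation behind the counts.

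Within the wildtype group the 13 fast targets varied with a median coefficient of variation of 4.71%, and within the knockout group with 11.0%. For constitutive glycolysis the values were 4.00% and 4.43%, and over all tested genes 7.45% and 8.82%. Without knockout replicate 3 the knockout value was 6.19% for the fast targets, 3.28% for constitutive glycolysis and 7.23% for all tested genes. The difference in spread between roles was not tested.

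The transporters of lactate and pyruvate were not called. Slc16a1, the monocarboxylate transporter of endothelium and glia, was at 54.9, 57.9, 61.5, 64.6 and 61.3 CPM in wildtype and 53.0, 57.8, 55.5, 51.5 and 57.7 CPM in knockout brains. The ranges overlapped at wildtype replicate 1, and the log2 fold change was -0.12 (unadjusted edgeR p 0.044, adjusted p 0.323). Slc16a3, the HIF-induced lactate exporter, was at 1.91, 3.11, 1.55, 1.83 and 2.10 CPM in wildtype and 2.08, 2.05, 2.24, 3.01 and 2.69 CPM in knockout brains. Its highest library was wildtype replicate 2, and the log2 fold change was 0.23 (95% interval -0.18 to 0.64, edgeR adjusted p 0.614). Slc16a7, the neuronal transporter, was at 16.2 ± 4.29 and 17.2 ± 3.26 CPM (log2 fold change 0.11, edgeR adjusted p 0.831). Pdk2, another kinase of pyruvate dehydrogenase, was at 114, 109, 105, 109 and 101 CPM in wildtype and 110.2, 125, 86.5, 122 and 111 CPM in knockout brains. The knockout group held both its highest and its lowest library, replicates 2 and 3, and the log2 fold change was 0.05 (edgeR adjusted p 0.81).

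Ratios between 10 pairs of related genes were compared with an exact two-sided permutation test over all assignments of the libraries. The smallest p this test can give is 0.00794, which is 0.0794 after Benjamini-Hochberg adjustment over the 10, so a single shifted ratio could not pass 0.05, and none did. The largest shift was that of Epas1 over Hif1a, with a log2 ratio of 0.05 ± 0.16 in wildtype and 0.28 ± 0.18 in knockout brains (exact permutation p 0.0635, adjusted 0.635). For Ldha over Ldhb the log2 ratio was -1.31 in wildtype and -1.38 in knockout brains (exact permutation p 0.405), and for Slc2a1 over Slc2a3 it was -0.89 and -0.85.

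A further 93 genes of the pathway were listed, of which 87 were tested, and 2 fell and 0 rose. Over all tested genes 0.964% were called lower and 0.213% higher, and the count was not tested against these shares. Both genes that fell were hypoxia targets. Bhlhe40, a transcriptional repressor of the clock and of hypoxia, was at 116, 127, 121, 111 and 122 CPM in wildtype and 84.4, 83.8, 106, 85.2 and 109 CPM in knockout brains. Knockout replicates 3 and 5 lay just under the wildtype group and the other 3 far under it, a log2 difference of -0.36 (edgeR adjusted p 0.0303). Jmjd6, a lysyl hydroxylase, was at 30.3, 29.4, 32.8, 30.1 and 31.9 CPM in wildtype and 26.6, 25.0, 20.3, 25.8 and 26.2 CPM in knockout brains. All knockout brains were lower, replicate 3 most, and the log2 fold change was -0.30 (edgeR adjusted p 0.0452). Leaving out wildtype replicate 2, 3, 4 or 5, or knockout replicate 1, 2 or 4, took the edgeR adjusted p of Bhlhe40 to between 0.0561 and 0.095. That of Jmjd6 was 0.0532 to 0.117 with any library but knockout replicate 3 left out, and 0.0262 with that one left out.

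The 31 other hypoxia targets tested had a median log2 fold change of -0.05, near that of the 13 fast targets. Of 15 other regulators of HIF 0 were called, with a median of -0.02. Among them the deacetylase Sirt1 (27.3 ± 2.53 and 22.3 ± 2.72 CPM) and the coactivator Ep300 (128 ± 5.57 and 118 ± 1.38 CPM) had the smallest p-values, with edgeR adjusted p-values of 0.131 and 0.157. Hif3a, an alpha subunit with splice forms that restrain HIF, had the largest log2 fold change of the lists, 1.08 upward, and is named here after its values were seen. It was at 3.47, 6.51, 3.87, 3.84 and 3.50 CPM in wildtype and 5.33, 4.46, 6.73, 16.9 and 7.57 CPM in knockout brains. Knockout replicate 4 was far above the rest and the groups overlapped (edgeR adjusted p 0.165), and without that library the log2 fold change was 0.46 (edgeR adjusted p 0.378). Of 16 other glycolytic enzymes tested 0 were called, with a median of 0.05. Tigar, a phosphatase that opposes Pfkfb3, had the smallest p there (log2 fold change -0.23, edgeR adjusted p 0.0915), followed by Pgam2 (0.56, edgeR adjusted p 0.174). The 12 genes listed as pyruvate entry into mitochondria gave 0 calls and a median of -0.01, with Pdp1 at -0.17 and Dld at -0.10. Most of that list is pyruvate dehydrogenase and the enzymes that regulate it, not the carriers of pyruvate. The 13 genes tested from the list of other glucose and lactate transport gave 0 calls and a median of 0.03, with Slc2a9 at 0.45 and Emb at -0.10. Not every gene of that list is itself a transporter of glucose or lactate.

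Some of the 38 genes differed between the deeper and the shallower libraries. In 7 of the 38 (18.4%) the 3 deeper libraries did not overlap the 7 shallower ones, beside 10.1% of all tested genes. Aldoa was at 1200 to 1301 CPM in the deeper and 1112 to 1185 CPM in the shallower libraries. Pkm2 was at 1397 to 1450 against 1222 to 1348 CPM, Egln2 at 71.3 to 73.3 against 58.7 to 64.3 CPM, and Pdk2 at 114 to 125 against 86.5 to 111 CPM. The mitophagy receptors went the other way, with Bnip3 at 76.7 to 78.1 against 82.3 to 86.1 CPM and Bnip3l at 122 to 129 against 132 to 141 CPM. Kdm3a was also lower in the deeper libraries, at 44.2 to 49.9 against 51.1 to 59.1 CPM. The deeper class holds 1 wildtype and 2 knockout brains, and what sets it apart was not tested.

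**Figure D4:**
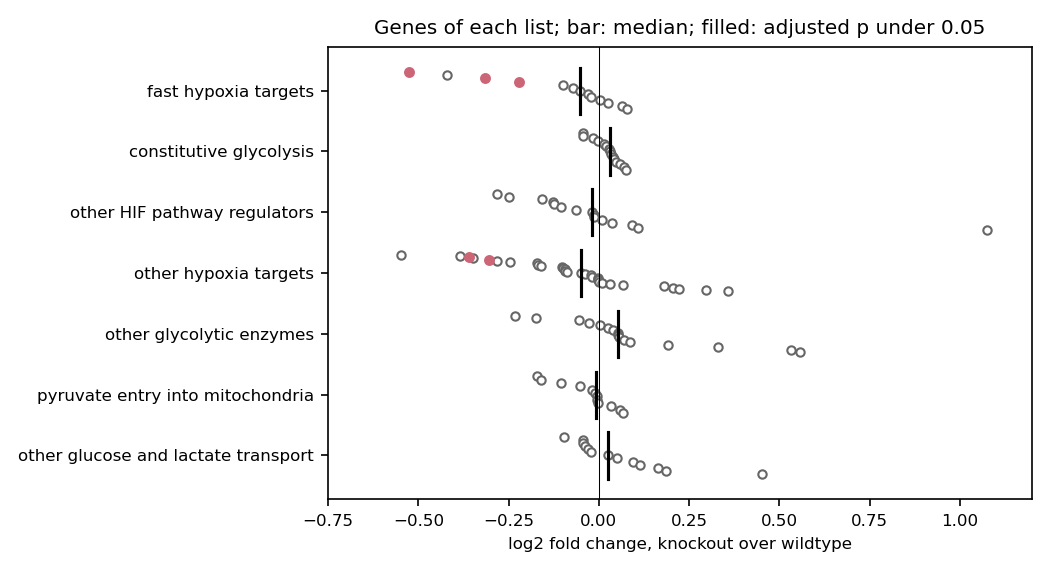
log2 fold change (knockout over wildtype) of every tested gene of 7 lists; points are genes, filled points passed an edgeR adjusted p of 0.05 and vertical bars are list medians. From the left, the filled points are P4ha1, Pfkfb3 and Vegfa among fast targets, and Bhlhe40 and Jmjd6 among other hypoxia targets.

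Markers of cell types that express these genes were summed in each library. The 8 endothelial markers summed to 242 to 269.9 CPM in wildtype and 255 to 283 CPM in knockout brains, and the 7 astrocyte markers to 3757 to 4112 and 3802 to 4518 CPM, with 0 called in either list. The 7 microglia markers summed to 173 to 191 CPM in wildtype brains. In knockout brains their sum was 207 to 248 CPM, without overlap, and 207 to 212 CPM without knockout replicate 3. Of the 7, 2 were called higher, beside 0.213% of all tested genes, and neither the count nor the sum was tested. The 6 blood markers summed to 53.8 to 88.0 and 70.7 to 103 CPM. The 6 neuron markers summed to 5703 to 6041 CPM in wildtype and 5735 to 6383 CPM in knockout brains. The 6 oligodendrocyte markers summed to 6613 to 7103 and 6102 to 7436 CPM. For 6 pericyte and smooth muscle markers the sums were 130 to 156 and 141 to 161 CPM. Those of 5 choroid plexus markers were 550 to 653 and 528 to 647 CPM. No neuron, oligodendrocyte, pericyte, smooth muscle or choroid plexus marker was called. No marker of these lists was at 0 in the libraries. The part of these cell types in the fall of P4ha1, Pfkfb3 and Vegfa was not tested.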

How the data were processed

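RNA was measured in 10 whole mouse brains, and groups were taken from the labels. The deposited table held whole-number counts per Ensembl gene and library, made by the authors. TopHat2 2.0.6, HTSeq, edgeR and limma are named as tools, per the submitters' processing notes; their roles and settings, the genome build and the strand setting of the counting are not given in the sources used here. The adjusted p-values of the authors' deposited table were read for the members alone, and 10 further per-library columns were not used.

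The filter was filterByExpr (at least 10 counts, 15 in total), libraries were scaled by TMM, and knockout was tested against wildtype with the quasi-likelihood test of edgeR 4.0.16 in R 4.3.3, and p-values were adjusted by Benjamini-Hochberg across the 14526 genes tested. Counts were turned into CPM, and SEs come from the fold change and its F statistic. Levels are mean ± SD with n = 5. The ratios given were of CPM with no prior added. Of the list genes, 4 not found by symbol were matched by Ensembl ID. The method was tested on simulated data. Replicates differed by more than counting error (chi-square over its degrees of freedom 1.29 to 12.8).

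The members and lists were chosen with earlier results of these data known, and the promoters to print were chosen after the values were seen. Values per library are given for called members, the 2 members of each role with the smallest p and the most abundant one; of the other lists, called genes and the 2 with the smallest p are named. Alternatives were scaling by upper quartiles or DESeq2 size factors, a minimum of 1 CPM in 5 libraries or no filter, a replicate block, the Wald test of DESeq2 1.42.0, limma-voom (limma 3.58.1), each library left out, the 7 shallower libraries alone, thresholds of 0.01 and 0.1 and, chosen after seeing the data, depth class as a term.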

Additional observations from a re-analysis of the deposited data

Results flagged for a closer look

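In each of the 76 groups of 5 libraries (38 genes in each genotype) the highest and lowest brain were set against the others, and in 8 groups 1 brain was farther off than the limit for 5 values; about 1 in 20 groups passes it by chance. Vegfa was at 99.7 CPM in wildtype replicate 3, below the other 4. P4ha1 was at 53.4 CPM in knockout replicate 3, above the other 4, and Hk2 was at 2.77 CPM in that same library, below the other 4. Slc2a1 was high in knockout replicate 4, at 108 CPM. Aldoa was high in knockout replicate 2, at 1301 CPM, as was Eno1 at 240.0 CPM. Pgk1 was low in wildtype replicate 1, at 226 CPM. Ldha was low in knockout replicate 4, at 154 CPM. Wildtype replicate 1 and knockout replicates 2 and 4 are the 3 deeper libraries.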

How the results depend on the processing

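The 5 called genes of the lists (P4ha1, Pfkfb3, Vegfa, Bhlhe40 and Jmjd6) stayed lower in every alternative run, while 15 of the 38 genes, 0 of them called, changed sign in at least 1. The median of the fast targets stayed between -0.08 and -0.04 and that of constitutive glycolysis between 0.01 and 0.05. P4ha1 was called in every alternative. Of the 38 genes, 3 fell in all libraries together, 1 in the 7 shallower libraries alone, 1 at an adjusted p under 0.01 and 1 to 3 with 1 library left out. With upper-quartile scaling Vegfa was lost (edgeR adjusted p 0.0583), and that scaling moved the median of all genes from 0.00 to 0.02. Over all tested genes, 31 rose and 140 fell, against 49 and 212 with the DESeq2 Wald test, 5 and 26 in the shallower libraries, 6 and 57 at 0.01, 102 and 271 at 0.1, 8 to 93 and 67 to 248 with 1 library left out, and 48 higher with depth class as a term. Of the other pathway genes 2 fell, against 1 with upper-quartile scaling, 4 with DESeq2, 0 in the shallower libraries, 0 at 0.01, 6 at 0.1 and 0 to 5 with 1 library left out. With depth class as a term 1 of them was higher, Tfrc (edgeR adjusted p 0.0239). With the replicate block, 8 genes rose and 82 fell, 2 of the 38 fell, with Pfkfb3 lost (edgeR adjusted p 0.0517), and 1 of the other pathway genes fell, with Jmjd6 lost (0.116). Same-numbered brains deviated from their group means with correlations of -0.138 to 0.0893 over all tested genes. Knockout replicate 3 stood far from its group, so these correlations cannot settle whether the numbers pair the brains. Depth limits Adm, Slc16a3 and Ankrd37, which had as few as 10, 12 and 21 counts in a library.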
